A study of Mus musculus with 8 samples.

Results

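Alternative activation marker genes are the genes by which macrophages exposed to IL-4 or IL-13 are usually recognised, and 7 of them were followed here: Mrc1, Clec10a, Mgl2, Retnla, Chi3l3, Tgm2 and Klf4. They were taken by name from the deposited gene table, in which all 7 had 1 row each among 11996 genes. All 7 passed a filter on low values that kept 11400 genes. The arginase genes were left aside.

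IL-4 and IL-13 signal through the IL-4 receptor alpha chain, which pairs with the common gamma chain or with IL-13 receptor alpha 1, and through JAK kinases that phosphorylate the transcription factor STAT6. STAT6 then switches on genes for endocytic lectins, secreted chitinase-like and resistin-like proteins, and enzymes. IL-10 uses a different receptor and works mainly through STAT3, and it is known to raise the IL-4 receptor alpha chain in macrophages. PTP1B, the product of Ptpn1, is a tyrosine phosphatase that acts on JAK kinases and on several receptors.

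RNA was sequenced from macrophages that thioglycolate, an irritant, had drawn into the peritoneal cavity of C57BL/6 mice and that had adhered to plastic for 24 h. The 8 samples form 4 groups of 2: Ptpn1-/- cells given IL-10 at 100 ng/ml for 4 h, Ptpn1-/- cells given mock treatment, wild-type cells given the same IL-10 treatment, and wild-type cells given mock treatment. Neither IL-4 nor IL-13 is named in the labels of any group. The comparisons ask how IL-10 and the loss of Ptpn1 each went with the expression of these genes, and whether the IL-10 difference depended on genotype.

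Each gene has 1 value per group, a normalized signal given by the authors, so no value per sample was analysed, replicate spread is not known for any gene, and no p-value is given. The 4 columns have the same total, and their sequencing depth is unknown. Each comparison is a log2 ratio taken after a pseudocount of 26.7 units was added to both sides, and a limit of 1.5-fold (0.58 on the log2 scale) is used only to count genes. Ptpn1 itself stood at 5391.5 units in knockout cells with IL-10 and 3836.5 with mock treatment, against 6736 and 4960.5 units in wild-type cells, so its RNA was not missing from the knockout columns. The part of Ptpn1 that was deleted is not given in the sources used here, so its level says little about the genotype labels.

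In mock-treated cells 4 of the 7 genes, Retnla, Chi3l3, Clec10a and Mgl2, stood at least 1.5-fold higher in the knockout than in wild type, a size that 1.43% of kept genes reached in that direction. The upstream sequences of 3 of them are in the RefSeq promoter table (build GRCm38.p6, 250 bases before to 50 after the annotated start) and are shown because these genes stood higher together in the knockout. Chi3l3 carries its present symbol, Chil3, there. Capitals mark matches to a STAT6 motif, TTCNNNNGAA, or to the general STAT motif, TTCNNNGAA, both searched on both strands. The windows are chr16:48842359-48842658 on the plus strand for Retnla, chr3:106167515-106167814 on the minus strand for Chi3l3 and chr11:70130107-70130406 on the plus strand for Mgl2, each written 5′ to 3′ along its gene.
Retnla: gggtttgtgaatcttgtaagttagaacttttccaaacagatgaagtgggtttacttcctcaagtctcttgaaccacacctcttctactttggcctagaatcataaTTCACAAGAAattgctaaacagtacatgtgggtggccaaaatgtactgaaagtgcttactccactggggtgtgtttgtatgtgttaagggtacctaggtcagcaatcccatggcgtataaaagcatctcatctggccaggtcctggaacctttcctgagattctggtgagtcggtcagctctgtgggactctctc
Chi3l3: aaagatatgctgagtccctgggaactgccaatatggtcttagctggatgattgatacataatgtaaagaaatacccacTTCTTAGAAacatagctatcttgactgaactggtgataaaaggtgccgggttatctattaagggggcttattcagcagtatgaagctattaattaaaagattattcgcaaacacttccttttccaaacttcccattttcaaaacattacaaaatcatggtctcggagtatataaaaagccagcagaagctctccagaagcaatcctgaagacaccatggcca
Mgl2: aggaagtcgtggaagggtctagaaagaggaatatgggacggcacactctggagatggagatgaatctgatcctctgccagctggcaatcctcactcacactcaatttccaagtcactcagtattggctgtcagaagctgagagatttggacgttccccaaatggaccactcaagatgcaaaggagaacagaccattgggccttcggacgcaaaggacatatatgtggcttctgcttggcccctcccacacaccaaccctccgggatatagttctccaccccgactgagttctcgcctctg

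The Retnla window held 1 match to the STAT6 motif, TTCACAAGAA, from 145 to 136 bases before the start. The Chi3l3 window held 1 match to the general STAT motif, TTCTTAGAA, from 172 to 164 bases before the start. The Mgl2 window held neither, and nor did the windows of Mrc1 and Klf4. No window of these 5 genes held the core of the interferon response element, GAAANNGAAA, on either strand. Of the 32851 windows in the table, 6.95% held the STAT6 motif, 8.3% the general STAT motif and 3.44% the interferon core. A match describes the letters of the window and says nothing of binding.

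**Figure D1:**
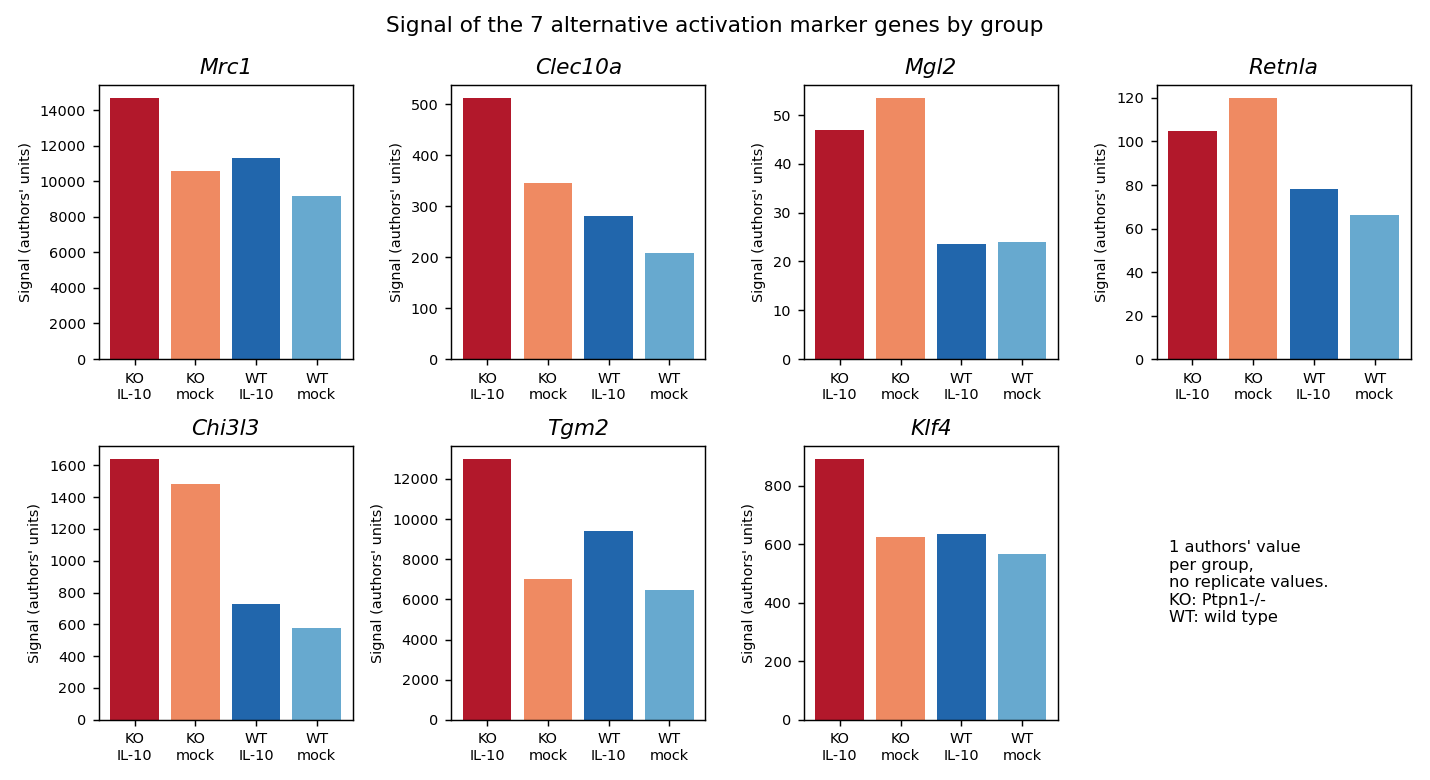
Bars give the authors' signal (linear axis from 0, units of the deposited table) of each of the 7 genes in Ptpn1-/- cells (KO) with IL-10, KO with mock treatment, wild-type cells (WT) with IL-10 and WT with mock treatment, 1 value per group and no error bars. Retnla, Chi3l3, Clec10a and Mgl2 are higher in both KO columns than in both WT columns, while Tgm2, Mrc1 and Klf4 are higher in both IL-10 columns than in both mock columns.

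The lectin receptors differed in what they followed. Mrc1 (ENSMUSG00000026712; mm9 chromosome 2, 14250188 to 14252146, plus strand) encodes the mannose receptor CD206, which takes up mannosylated glycoproteins. It was listed at 14681 units in knockout cells with IL-10, 10581 in knockout cells with mock treatment, 11295 in wild-type cells with IL-10 and 9145.5 in wild-type cells with mock treatment. Both IL-10 values thus lay above both mock values. The log2 ratio of IL-10 to mock was 0.47 in the knockout and 0.30 in wild type, and that of knockout to wild type was 0.38 with IL-10 and 0.21 with mock treatment. No Mrc1 ratio reached 1.5-fold. The row of Mrc1 covers 1959 bases, whereas the RefSeq gene spans 102610 bases on GRCm38. Rows of other members are also shorter than the RefSeq gene, at 4936 against 20011 bases for Chi3l3, 2139 against 7418 for Mgl2 and 19049 against 29988 for Tgm2. The part of a gene that each value counts is not given in the sources used here.

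Clec10a (ENSMUSG00000000318; mm9 chromosome 11, 69980169 to 69984335, plus strand) encodes MGL1, a macrophage lectin that binds galactose-type sugars. Its signal was 512.5 units in knockout cells with IL-10, 346 in knockout cells with mock treatment, 280 in wild-type cells with IL-10 and 209 in wild-type cells with mock treatment. Both knockout values exceeded both wild-type values, and within each genotype the IL-10 value was the higher. The knockout to wild-type log2 ratio was 0.81 with IL-10 and 0.66 with mock treatment, and the IL-10 to mock ratio was 0.53 in the knockout and 0.38 in wild type. The mock difference was 0.56, just short of 1.5-fold, once the trend over transcript length had been subtracted.

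Mgl2 (ENSMUSG00000040950; mm9 chromosome 11, 69947596 to 69949734, plus strand) lies beside Clec10a and encodes the related lectin MGL2, also known from dendritic cells. It was the lowest of the set, at 47 units in knockout cells with IL-10, 53.5 in knockout cells with mock treatment, 23.5 in wild-type cells with IL-10 and 24 in wild-type cells with mock treatment. Without a pseudocount the knockout to wild-type ratio was 2 with IL-10 and 2.23 with mock treatment, and the pseudocount brought these to log2 ratios of 0.55 and 0.66. IL-10 made little difference, with log2 ratios of -0.12 for knockout cells and -0.01 for wild-type cells. Reads of the paired lectin genes may be split between them. Of all windows of 50 bases in the Mgl2 transcripts of GENCODE M21, 12.2% also occur in Clec10a, and 8.49% of those in Clec10a also occur in Mgl2.

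Of the secreted products, Retnla (ENSMUSG00000061100; mm9 chromosome 16, 48842665 to 48844574, plus strand) encodes RELM-alpha, or FIZZ1, a resistin-like protein whose STAT6-driven expression is a hallmark of alternative activation in mice. Its signal was low, at 105 units in knockout cells with IL-10, 120 in knockout cells with mock treatment, 78 in wild-type cells with IL-10 and 66 in wild-type cells with mock treatment. Both knockout values again lay above both wild-type values. The knockout to wild-type log2 ratio was 0.33 with IL-10 and 0.66 with mock treatment. The IL-10 to mock ratio was -0.16 in the knockout and 0.18 in wild type, the only sign that differed between genotypes. Replicate spread is unknown at this signal, and the wild-type ratio was 0.09 with the trend over transcript length subtracted. No window of 50 bases in Retnla occurs in the transcripts of another gene.

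Chi3l3 (ENSMUSG00000040809; mm9 chromosome 3, 105958609 to 105963544, minus strand) encodes Ym1, a secreted chitinase-like lectin that is also made by mouse neutrophils and monocytes. It had the largest genotype difference of the 7 genes. Its signal was 1641 units in knockout cells with IL-10, 1482 in knockout cells with mock treatment, 728.5 in wild-type cells with IL-10 and 574 in wild-type cells with mock treatment. The knockout to wild-type log2 ratio was 1.14 with IL-10 and 1.33 with mock treatment, ranks 50 and 18 from the top among the 11400 kept genes. IL-10 separated the columns less, with log2 ratios of 0.14 for knockout cells and 0.33 for wild-type cells. Chi3l3 has a near copy, Chi3l4 (Chil4), which has no row in the table used here. Of the 50-base windows of Chi3l3 transcripts, 26.9% occur in other genes and 16.9% in Chil4, so its signal may hold reads of such copies.

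Tgm2 (ENSMUSG00000037820; mm9 chromosome 2, 157953081 to 157972129, minus strand) encodes transglutaminase 2, an enzyme that cross-links proteins and is a marker of alternative activation in both human and mouse macrophages. Its signal was 13008 units in knockout cells with IL-10, 7039 in knockout cells with mock treatment, 9428 in wild-type cells with IL-10 and 6477 in wild-type cells with mock treatment. Tgm2 showed the largest IL-10 difference of the set, with log2 ratios of 0.88 for knockout cells and 0.54 for wild-type cells. The genotypes were close under mock treatment, at a knockout to wild-type ratio of 0.12, and further apart with IL-10, at 0.46.

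Klf4 (ENSMUSG00000003032; mm9 chromosome 4, 55540013 to 55545347, minus strand) encodes a zinc-finger transcription factor that STAT6 induces and that works with STAT6 on alternative activation genes in mouse macrophages. It was listed at 892 units in knockout cells with IL-10, 626 in knockout cells with mock treatment, 636 in wild-type cells with IL-10 and 567 in wild-type cells with mock treatment. One column stood apart, that of knockout cells with IL-10, and the other values lay close together. The IL-10 to mock log2 ratio was 0.49 in the knockout and 0.16 in wild type, and the knockout to wild-type ratio was 0.47 with IL-10 and 0.14 with mock treatment.

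**Figure D2:**
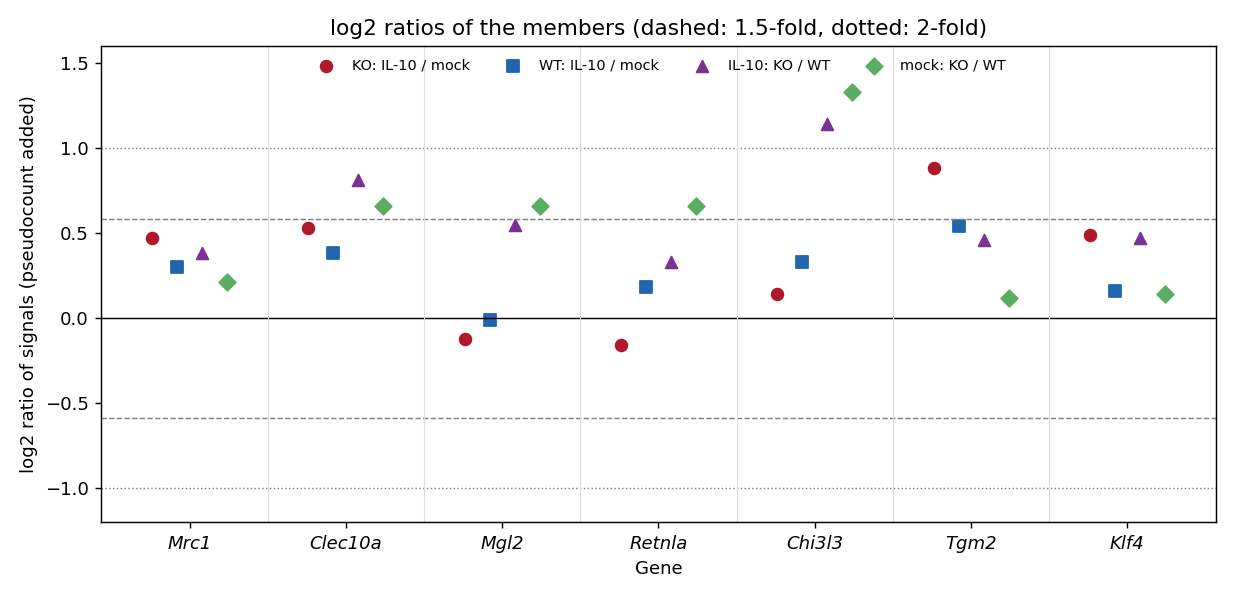
Points give, for each gene, the log2 ratio of signals in 4 comparisons: IL-10 over mock in KO, IL-10 over mock in WT, KO over WT with IL-10 and KO over WT with mock treatment. Dashed lines mark 1.5-fold and dotted lines 2-fold. Chi3l3 alone passes 2-fold (1.14 and 1.33). The genotype ratios of all 7 genes lie above 0, as do those of 51.8% of kept genes with IL-10 and 53.5% with mock treatment.

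Across the set, every genotype ratio was above 0, under both treatments. Of all kept genes, 51.8% were above 0 with IL-10 and 53.5% with mock treatment. With IL-10, the knockout to wild-type ratio had a median of 0.47, and 2 of 7, Chi3l3 and Clec10a, were at least 1.5-fold higher, against 1.8% of the kept genes. Chi3l3 also passed 2-fold there, as did 0.596% of kept genes. Under mock treatment the median was 0.66, and 4 of 7 were at least 1.5-fold higher, against 1.43% of the kept genes, while 1 of 7 passed 2-fold, against 0.325%. The median of all kept genes was 0.01 with IL-10 and 0.02 with mock treatment, and none of the 7 genes was 1.5-fold lower in either comparison, as 0.991% and 1.4% of kept genes were.

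The mock count rests on genes near the limit, of which Retnla and Mgl2 are also low. Among the kept genes with a mean below 5 ppm of the column total, where Retnla and Mgl2 lie, 2.19% were 1.5-fold higher in that comparison. Retnla, Clec10a and Mgl2 each stood at a log2 ratio of 0.66, and with a pseudocount of 4 ppm of the column total, or with the ratio's trend over transcript length taken off, Chi3l3 was the 1 gene of 7 left past 1.5-fold. With the length trend subtracted, the mock ratio was 0.47 for Retnla, 0.51 for Mgl2 and 1.18 for Chi3l3. Shorter transcripts had higher knockout to wild-type ratios over all kept genes (Spearman's rho -0.53 under mock treatment and -0.40 with IL-10, across 11222 genes, which are not independent replicates). The longest transcripts of Retnla, Chi3l3 and Mgl2 have 599, 1539 and 1635 bases, whereas those of Mrc1 and Tgm2 have 5374 and 3596.

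The IL-10 ratios were highest for Tgm2 in both genotypes and below 0 in the knockout for Retnla and Mgl2. In knockout cells the IL-10 to mock ratio was above 0 for 5 of 7 genes and for 45.2% of kept genes. The median was 0.47 against -0.01 for all kept genes. Tgm2 was the 1 of 7 at least 1.5-fold higher, against 2.32% of kept genes. In wild-type cells the IL-10 to mock ratio was above 0 for 6 of 7 and for 49.6% of kept genes. Its median was 0.30 against 0.00, and 0 of 7 reached 1.5-fold, against 1.54% of kept genes. The difference between the genotypes' IL-10 ratios was 0.34 for Tgm2, 0.33 for Klf4, 0.17 for Mrc1 and 0.15 for Clec10a. It was -0.11 for Mgl2, -0.19 for Chi3l3 and -0.33 for Retnla. None of the 7 differed by 1.5-fold upward or downward, as 0.5% and 0.263% of kept genes did. The IL-10 ratios also varied with transcript length over all kept genes. Shorter transcripts had higher IL-10 to mock ratios (Spearman's rho -0.13 in the knockout and -0.36 in wild type). The difference between the genotypes' ratios was larger for longer transcripts (rho 0.26).

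The order of the groups follows from these values. Knockout cells with IL-10 held the highest value for 5 of the 7 genes, and knockout cells with mock treatment held it for Retnla and Mgl2. Wild-type cells with mock treatment held the lowest value for 6, and wild-type cells with IL-10 for Mgl2. Both knockout values exceeded both wild-type values for 4 genes, Retnla, Chi3l3, Clec10a and Mgl2. The share of all kept genes with such orders was not counted, so these counts only describe the 7 genes. Which neighbouring groups differ beyond their spread cannot be said from 1 value each.

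Levels of different genes were set side by side as signal per kilobase of the longest GENCODE M21 transcript. Whether the deposited signal was already scaled for length is not given in the sources used here. On this scale Tgm2 and Mrc1 led in knockout cells with IL-10, at 3617 and 2732 units per kilobase, followed by Chi3l3 at 1066, Klf4 at 294, Clec10a at 219.8, Retnla at 175 and Mgl2 at 28.7. In wild-type cells with mock treatment the levels were 1801 for Tgm2, 1702 for Mrc1, 373 for Chi3l3, 187 for Klf4, 110.2 for Retnla, 89.6 for Clec10a and 14.7 for Mgl2. Retnla and Clec10a thus traded places between these groups on this scale. In the signal as listed, Clec10a stood above Retnla in all 4 groups, so their order is not settled. In knockout cells with mock treatment Mrc1, at 1969, lay just above Tgm2, at 1957. Mrc1 was scaled by a transcript of 5374 bases, although its row covers only 1959. If its value counts that row alone, this scaling sets Mrc1 too low. Its place below Tgm2 in knockout cells with IL-10 and in mock-treated wild-type cells is therefore not settled.

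Around these markers, the genes of the ligand-binding receptor chains for IL-4 and IL-13 were higher with IL-10. Il4ra, the chain shared by both cytokine receptors, was listed at 7868.5 units in knockout cells with IL-10, 2126 in knockout cells with mock treatment, 4637 in wild-type cells with IL-10 and 2056.5 in wild-type cells with mock treatment. Il13ra1, its partner for IL-13, stood at 4575.5 and 1365.5 units in the knockout with IL-10 and mock treatment, and at 3475.5 and 1121 units in wild type. Both were more than 2-fold higher with IL-10 in each genotype. Il2rg, the common gamma chain, stood at 4415.5 and 4582 units in the knockout with IL-10 and mock treatment, and at 3398.5 and 3291.5 in wild type, so that it was higher in the knockout and nearly level with IL-10. Stat6 ranged from 4134 to 4526 units over the 4 groups. Of the kinases, Jak3 had IL-10 ratios of 0.81 for knockout cells and 0.65 for wild-type cells, Jak1 0.32 and 0.25, and Tyk2 -0.15 and -0.19.

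The wider list of 40 genes of the IL-4, IL-13 and STAT6 pathway and its targets had 35 rows, of which 33 passed the filter. In knockout cells 7 of 33 were at least 1.5-fold higher with IL-10, namely Il4ra, Il13ra1, Jak3, Msr1, Tfec, Socs2 and Ccl24, against 2.32% of kept genes. Cd36 was the 1 lower, against 0.807%. In wild type 7 of 33 were higher, with F13a1 in place of Ccl24, against 1.54% of kept genes, and Cd36 was again the 1 lower, against 0.412%. Of the genes named, Ccl24 and Socs2 had means below 5 ppm of the column total. At such levels 3.01% of kept genes were 1.5-fold higher with IL-10 in the knockout and 2.14% in wild type. The list's median ratio was 0.08 in the knockout and 0.00 in wild type. Tfec, a transcription factor of the MiT family, stood at 1505.5 units in knockout cells with IL-10 and 392.5 with mock treatment, against 943.5 and 340.5 units in wild type. Msr1, a scavenger receptor, stood at 9470 and 5749.5 units in the knockout and at 7279 and 4313 in wild type. Cd36, a fatty acid and scavenger receptor, was listed at 91114 units with IL-10 and 137379 with mock treatment in both genotypes, in the top range of the table where neighbouring ranks lie far apart.

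Between genotypes, few genes of the wider list passed the limit. Of its 33 kept genes, 1 passed 1.5-fold in mock-treated knockout cells, the chemokine gene Ccl22, at 62 units in the knockout and 30.5 in wild type, against 1.43% of kept genes. Ccl22 lies below 5 ppm of the column total, where 2.19% of kept genes passed this limit. The list's median was 0.05. With IL-10, 4 of 33 passed 1.5-fold upward in the knockout: Il4ra, Tfec and the feedback inhibitors Socs1 and Socs2, against 1.8% of kept genes. Socs1 stood at 107.5 units in the knockout with IL-10 and 56 in wild type with IL-10, and Socs2 at 204 and 118. Both have means below 5 ppm of the column total, where 3.57% of kept genes were 1.5-fold higher in this comparison. The list's median was 0.16. Under either treatment none of its kept genes was 1.5-fold lower in the knockout. Among all kept genes the share was also small, at 0.991% with IL-10 and 1.4% with mock treatment. In the difference between the genotypes' IL-10 ratios, Il4ra was the 1 gene past 1.5-fold, at 0.71, against 0.5% of kept genes.

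**Figure D3:**
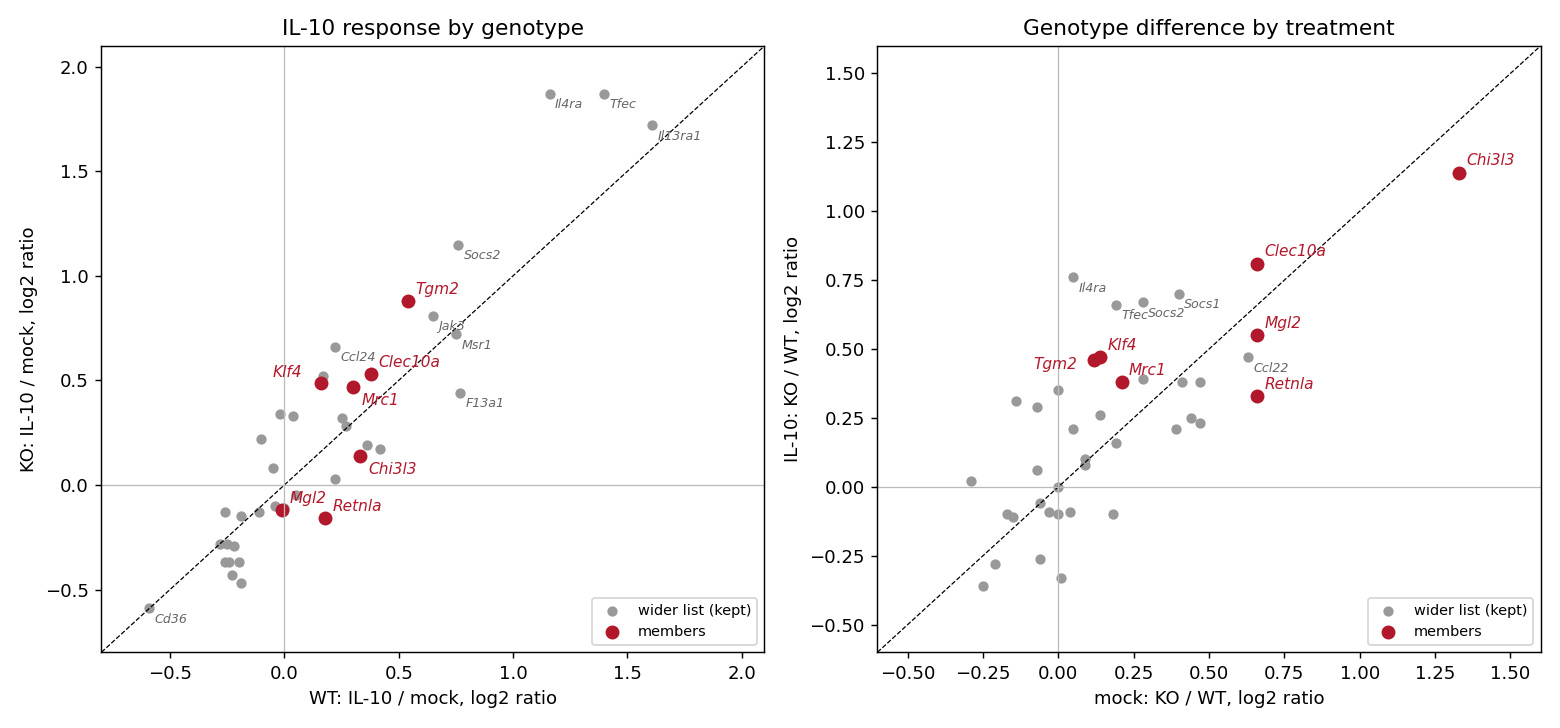
The left panel plots the IL-10 over mock log2 ratio in KO (vertical) against that in WT (horizontal), and the right panel the KO over WT log2 ratio with IL-10 (vertical) against that with mock treatment (horizontal), for the 7 markers (red) and the 33 kept genes of the wider list (grey; those past 1.5-fold on either axis are named). The dashed line marks equal ratios. Tgm2 lies highest of the markers on the left, below Il4ra, Tfec, Il13ra1 and Socs2, and Chi3l3 lies farthest out on the right.

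Macrophage markers were present in every group, with all 8 of the list in the table, and summed to 460756 and 460680 units in the knockout with IL-10 and mock treatment, against 553540 and 645696 in wild type. Their median genotype ratio was -0.08 with IL-10 and -0.04 with mock treatment, over genes that went both ways. Emr1 stood at 10088.5 and 11367 units in the knockout, against 10969 and 10888.5 in wild type. Lyz2 and Cd68, both in the top range of the table, made up most of each sum. Lyz2 carried the lower knockout sum, at 136852 units with either treatment, against 272813 and 362618 in wild type. Cd68 was higher in the knockout, at 272612 units with either treatment, against 226524 in wild type. Fcgr1 was also higher there, with ratios of 0.61 with IL-10 and 0.79 with mock treatment. Most monocyte markers were higher in the knockout and with IL-10. Their summed signal over 5 of 5 markers was 1654 units in knockout cells with IL-10, 978.5 in knockout cells with mock treatment, 1054 in wild-type cells with IL-10 and 586.5 in wild-type cells with mock treatment. All 5 were higher in the knockout under each treatment, with medians of 0.62 with IL-10 and 0.61 with mock treatment. The IL-10 to mock ratio was above 0 for 5 of 5 in knockout cells, at a median of 0.66, and for 4 of 5 in wild-type cells, at a median of 0.63. Ccr2 made up most of the sum. Ly6c2, which differed by genotype and little with IL-10, stood at 105.5 and 100 units in the knockout with IL-10 and mock treatment, against 13.5 and 15 in wild type. In bulk RNA, more cells of a type and more RNA per cell cannot be told apart. The part of monocytes in the higher Chi3l3, Clec10a, Mgl2 and Retnla signal was not tested.

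Markers of the other cell types varied in number and level, and those of mesothelial cells and fibroblasts were neither few nor low. Neutrophil markers had rows for 4 of 7, with a sum of 2563 and 2167.5 units in the knockout with IL-10 and mock treatment and of 2349 and 2324.5 in wild type. Nearly all of that was Csf3r, and S100a8, a defining marker, stood at 64 and 56.5 units in the knockout and at 52 and 53 in wild type. Dendritic cell markers had rows for 5 of 6, with a sum of 7743.5 and 8502.5 units in the knockout and of 11385.5 and 12124 in wild type, mostly Itgax. Zbtb46, a defining dendritic cell marker, stood at 83 and 81 units in the knockout and at 84 and 101 in wild type. Of the 5, 3 had genotype ratios above 0 under each treatment, namely Cd209a, Ccr7 and Batf3. The median was 0.16 with IL-10 and 0.14 with mock treatment. Cd209a was also higher with IL-10, at 72 and 14.5 units in the knockout and at 61.5 and 6 in wild type. Mast cell markers summed to 554 and 481 units in the knockout and to 360.5 and 330 in wild type over 6 of 6. All 4 that passed the filter had genotype ratios above 0 under each treatment, with medians of 0.54 with IL-10 and 0.41 with mock treatment. B cell markers had rows for 3 of 5, with sums of 122.5 and 119.5 units in the knockout and of 149 and 110 in wild type. Eosinophil markers had rows for 2 of 5, with sums of 520 and 424.5 units in the knockout and of 488.5 and 362.5 in wild type. Nearly all of that was Siglec5. Ccr3, which did not pass the filter, stood at 43 and 31.5 units in the knockout and at 17 and 9 in wild type. Mesothelial and fibroblast markers summed to 15927.5 and 13411 units in the knockout and to 20668 and 18319.5 in wild type over 8 of 8. Of the 7 that passed the filter, 1 had a genotype ratio above 0 under each treatment, and the medians were -0.58 with IL-10 and -0.59 with mock treatment. Col3a1 had ratios of -1.11 and -1.21, while Pdpn, the 1 above 0, stood at 7324 and 5367 units in the knockout and at 6550.5 and 4424 in wild type. Resident peritoneal macrophage markers, with rows for 5 of 6, summed to 2574 and 2429 units in the knockout and to 2129.5 and 1881 in wild type, a difference carried by Cxcl13. Gata6, the defining factor of these cells, went the other way, at 388 and 408 units in the knockout and at 628 and 700.0 in wild type, and Selp had genotype ratios of -0.33 with IL-10 and -0.53 with mock treatment. T cell markers had rows for 3 of 6, without the Cd3 chains, and nearly all of their sum of 44842.5 and 37065 units in the knockout and of 34761.5 and 32953 in wild type was Il7r. Lck was higher with IL-10, at 128 and 10 units in the knockout and at 105 and 11.5 in wild type. Cd5, which did not pass the filter, had IL-10 ratios of -0.08 for knockout cells and -0.16 for wild-type cells. The part of any of these cells in the values above was not tested.

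The genes whose profile over the 4 groups was most like each marker were sought among 9439 genes of at least 5 ppm by the Euclidean distance between centred log2 values. Chi3l3 was nearest to H2-Q6 (0.091), Ms4a7 and Oas1a, and H2-Q6 stood at 430.5, 372, 185 and 128.5 units in knockout cells with IL-10, knockout cells with mock treatment, wild-type cells with IL-10 and wild-type cells with mock treatment. Clec10a was nearest to H2-Q4 (0.097), Igtp and Sirpb1a. Tgm2 was nearest to Flrt3 (0.017), Trib1 and Il15ra, Mrc1 to Ptpn2 (0.012), Stx11 and Ptger4, and Klf4 to Ifih1 (0.031), Mxd1 and Samhd1. Among the markers themselves Mrc1 and Klf4 were closest, at 0.104, and Chi3l3 and Tgm2 farthest apart, at 1.089. Mgl2 and Retnla were below 5 ppm and were not compared. With only 4 points per gene, many genes lie close to any profile.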

How the data were processed

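The deposited table gives 1 normalized expression signal per gene and group, which the authors made by steps that no source used here states. The submitters' processing notes name RSEM, Bowtie and mm9, with no version. Its name says CPM, but each column sums to 26705598 and all values are multiples of 0.5, so the unit is called signal. None of the 4 columns carries a replicate, and depth is unknown. The planned limma-trend test, replicate block and leave-one-out fits were not run.

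Log2 ratios were computed in Python 3.11.15 with pandas 2.3.3, with a pseudocount of 1 ppm of the column total. Genes with a mean of at least 1 ppm were kept. The rule named all 7 members, the receptor chains, kinases and Stat6, genes of a wider list past 1.5-fold, and the 3 nearest profiles per member. The members and lists were chosen with earlier results of these data known. Where a name had several rows, the highest was used. The code was tested on simulated data. Row coordinates are mm9, per the submitters' processing notes; promoters are RefSeq GRCm38.p6. Promoter windows matched 5 of 7 members.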

Additional observations from a re-analysis of the deposited data

How the results depend on the processing

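Of the 35 ratios of single markers (7 genes in 5 comparisons), none changed sign under the 7 other settings run, where a setting gave a value. Most of this was fixed in advance. A pseudocount cannot change the sign of a ratio between groups, and a filter leaves each ratio as it is. For those ratios, only subtracting the median or the length trend could have changed a sign. The count of markers at least 1.5-fold higher in mock-treated knockout cells was 4 of 7, but 1 of 7 with a pseudocount of 4 ppm, 1 of 7 with the transcript length trend subtracted, and 2 of the 5 that pass a filter at 5 ppm. With no pseudocount, a setting chosen after seeing the data, 2 of 7 passed 2-fold upward in the knockout with IL-10 and 2 of 7 with mock treatment, Mgl2 being the gene added to Chi3l3 in each. The median mock ratio of the markers was 0.66, and 0.29 at 4 ppm, 0.21 at the 5 ppm filter and 0.47 with the length trend subtracted. Over all kept genes the count at least 1.5-fold higher in the knockout was 163 with mock treatment (94 at 4 ppm, 288 with no pseudocount) and 205 with IL-10 (127 at 4 ppm, 135 at the 5 ppm filter), and with IL-10 in wild type it was 176 (117 at 4 ppm). Past 2-fold it was 37 with mock treatment (57 at 0.25 ppm, 18 at 4 ppm, 70 with no pseudocount) and 68 with IL-10 (106 with no pseudocount). The count with a larger IL-10 ratio in the knockout by 1.5-fold was 57 (112 at 0.25 ppm, 29 at 4 ppm, 27 at the 5 ppm filter, 149 with no pseudocount). The counts at least 1.5-fold lower also varied: 160 in the knockout with mock treatment (249 at 0.25 ppm, 53 at 4 ppm, 95 with the length trend subtracted, 307 with no pseudocount), 113 with IL-10 (191, 35 and 230 at 0.25 ppm, 4 ppm and no pseudocount, 74 at the 5 ppm filter), 92 with IL-10 in the knockout (38 at 4 ppm, 174 with no pseudocount) and 47 in wild type (84, 16 and 114, 31 at the 5 ppm filter), and 30 for a smaller IL-10 ratio in the knockout (91, 9 and 117, 11 at the 5 ppm filter). No paired analysis was possible because the columns carry no replicate, and no replicate could be left out for the same reason. Retnla and Mgl2, at 23.5 to 120 units, are the values most open to error, and depth, being unknown, gives no interval.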

Other observations

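The relatives of the markers showed patterns of their own. Retnlg, a resistin-like gene that lies beside Retnla in the mouse genome and is known from neutrophils and monocytes, was listed at 121.5 and 109.5 units in knockout cells with IL-10 and mock treatment, against 26.5 and 29.5 units in wild-type cells. Its knockout to wild-type log2 ratio was 1.48 with IL-10 and 1.28 with mock treatment, larger than that of Retnla in both, at a signal below 5 ppm. Tgm1, a transglutaminase best known from skin, was listed at 605.5 and 255 units in the knockout with IL-10 and mock treatment, against 473.5 and 227.5 in wild type. Its IL-10 to mock log2 ratio was 1.17 in the knockout and 0.98 in wild type, above those of Tgm2. Mrc2, a collagen-binding relative of the mannose receptor, had IL-10 ratios of -0.01 for knockout cells and -0.25 for wild-type cells. Klf2 had IL-10 ratios of -0.40 and -0.07 in knockout and wild-type cells, and Klf6 of 0.08 and -0.02. Retnlb, Chi3l4 and Chi3l1 had no row in the table used here.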
